A study of Mus musculus with 24 samples.

Results

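Long noncoding RNAs with a known or listed link to p53 were followed across small cell lung cancer (SCLC) lines in which p53 can be switched back on. The set holds 7 listed symbols, Gm15987, Trp53cor1, Pvt1, Malat1, Neat1, Gas5 and Lncpint, out of 25239 genes in the expression table, and all 7 were found there. Of these, 6 passed the filter on low values used for testing, under which 3 or more libraries must reach 1 TPM. Lncpint did not. Gm15987 was chosen by its values in these libraries, namely the difference between cell types in the response to p53 without drug, whereas the other 6 symbols were listed by name. Its values are therefore given as a description, with no test in any comparison.

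The 6 lines came from lung tumors of mice started with an adenovirus that expressed Cre from a CMV promoter. All 24 libraries share the genotype of these mice: Rb1 flox/flox, Rbl2 flox/flox, Rosa26 FlpO-ER and Trp53 XTR/XTR. In the tumors, Cre had inactivated Rb1 and Rbl2 and inverted a gene trap in Trp53, which blocks Trp53 until FlpO removes it. In each line the trap was left in place (Control, vehicle) or removed with 4-hydroxytamoxifen (Restored), without or with cyclosporin A (CsA), an inhibitor of cyclophilins, and RNA was sampled at 72 h. Type D lines (4711-1, 4711-18 and 4716-11) die after p53 returns and Type V lines (4711-11, 4716-10 and 4716-14) stay viable, which gives 8 groups of 3 lines, each line with 1 library per condition. Each line is a separate tumor-derived culture, so n = 3 counts lines. Replicates 1, 2 and 3 below are these lines in the order given.

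p53 is a transcription factor that binds a paired DNA element and switches on genes for cell cycle arrest, DNA repair and death. Several long noncoding RNAs are among its targets: Trp53cor1 (also called lincRNA-p21) lies beside Cdkn1a, Pvt1 lies beside Myc and has a p53-induced isoform, Neat1 builds nuclear bodies called paraspeckles, and Lncpint is a p53-induced RNA tied to Polycomb repression. Malat1 is an abundant RNA of nuclear speckles, and Gas5 hosts small nucleolar RNAs in its introns and builds up in arrested cells. Gm15987 carries only a gene-model name.

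Gm15987 is annotated as a 2-exon antisense transcript on the minus strand of chr6:128951204-128975029 (GENCODE, GRCm38). Its promoter is shown because the RefSeq window around its start holds a match to the p53 response element, and the RNA had its highest levels in libraries with restored p53. The window, 250 bases before to 50 bases after the start, is chr6:128974980-128975279 in GRCm38.p6 and is written 5′ to 3′ on the minus strand with the matching 20 bases in capitals.
Gm15987 promoter: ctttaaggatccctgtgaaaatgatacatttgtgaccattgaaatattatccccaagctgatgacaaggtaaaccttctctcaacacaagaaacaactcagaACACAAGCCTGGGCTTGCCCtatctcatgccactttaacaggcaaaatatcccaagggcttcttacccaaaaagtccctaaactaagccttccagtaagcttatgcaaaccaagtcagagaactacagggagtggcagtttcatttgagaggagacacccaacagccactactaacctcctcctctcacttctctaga

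The match lies 148 to 129 bases before the start. The element searched was the p53 consensus of 2 decamers with no spacer, read the same on both strands, with at most 1 mismatch outside the fixed C and G of each decamer. That limit was set after the sequence had been seen. The second decamer of the Gm15987 match had 0 mismatches and the first had 1. Windows of 4 of the 7 noncoding RNAs were in the RefSeq table (Gm15987, Malat1, Lncpint and Gas5, the last with 2 windows), and the Gm15987 window alone among these 5 held a match. Across all 32817 windows of the same length, 22 (0.067%) held one, and 2742 (8.355%) held a single exact decamer. Among 26 windows of a list of known p53 target genes, 2 held the full element, those of Ccng1 and of the upstream start of Cdkn1a. The 3 elements are set side by side below. All were picked by the same pattern, so their likeness was fixed by the search and is no evidence of a working element.
Gm15987: ACACAAGCCTGGGCTTGCCC
Ccng1: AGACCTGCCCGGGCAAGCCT
Cdkn1a: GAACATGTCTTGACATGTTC
These matches are descriptions of sequence. Binding by p53 was not measured in the data used here. The study did measure it in Type D and Type V lines, by sequencing of chromatin bound by p53, and those data were not examined.

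Trp53, which checks the labels, ran from 10.5 to 15.3 TPM in the 12 libraries without restoration and from 182 to 253 TPM in the 12 with it, and the ranges did not overlap. Of the neuroendocrine markers, Chga was at 0 TPM in all 24 libraries, Calca reached 0.105 TPM and Syp 1.41 TPM, while Ncam1 ran from 4.46 to 27.3 TPM. The summed level of the 7 neuroendocrine markers was 5.50 to 27.1 TPM in the Type D groups and 16.2 to 85.7 TPM in the Type V groups, so it moved with type. T-cell Cd3e and the red-cell genes Hbb-bs and Hba-a1 were at 0 throughout. Cd68, of macrophages but also of lysosomes in other cells, reached 55.3 TPM. Sftpb, a surfactant gene of the alveolar and club cell markers, ran from 0 to 92.95 TPM, the highest value among the markers of other cells. The sum of the 11 markers of other cells was 8.67 to 10.9 TPM in Type V Control and 16.7 to 32.0 TPM in Type V Restored, and 10.6 to 98.4 TPM against 30.5 to 56.1 TPM in the Type D groups. Their part in the results below was not tested. As these are bulk libraries, fewer cells that make an RNA and less RNA per cell cannot be told apart.

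TPM is scaled by transcript length, so levels can be set beside each other. Gas5 was the most abundant of the 7 in 21 of 24 libraries when set against Malat1, the next. Malat1 exceeded Neat1 in 24 of 24, Neat1 exceeded Pvt1 in 22 of 24, Pvt1 exceeded Trp53cor1 in 24 of 24, and Trp53cor1 exceeded Lncpint in 23 of 24. Medians over all libraries were 542 TPM for Gas5, 153 TPM for Malat1, 36.1 TPM for Neat1, 19.6 TPM for Pvt1, 1.95 TPM for Trp53cor1, 0.552 TPM for Gm15987 and 0.257 TPM for Lncpint. Gm15987 has no fixed place in this order, because its level spans the range from 0 to 35.7 TPM. Libraries were made from poly(A) RNA, and the mature 3′ end of Malat1 and of the long Neat1 isoform is a triple helix with no poly(A) tail, so their TPM values cover the captured part of each RNA.

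**Figure D1:**
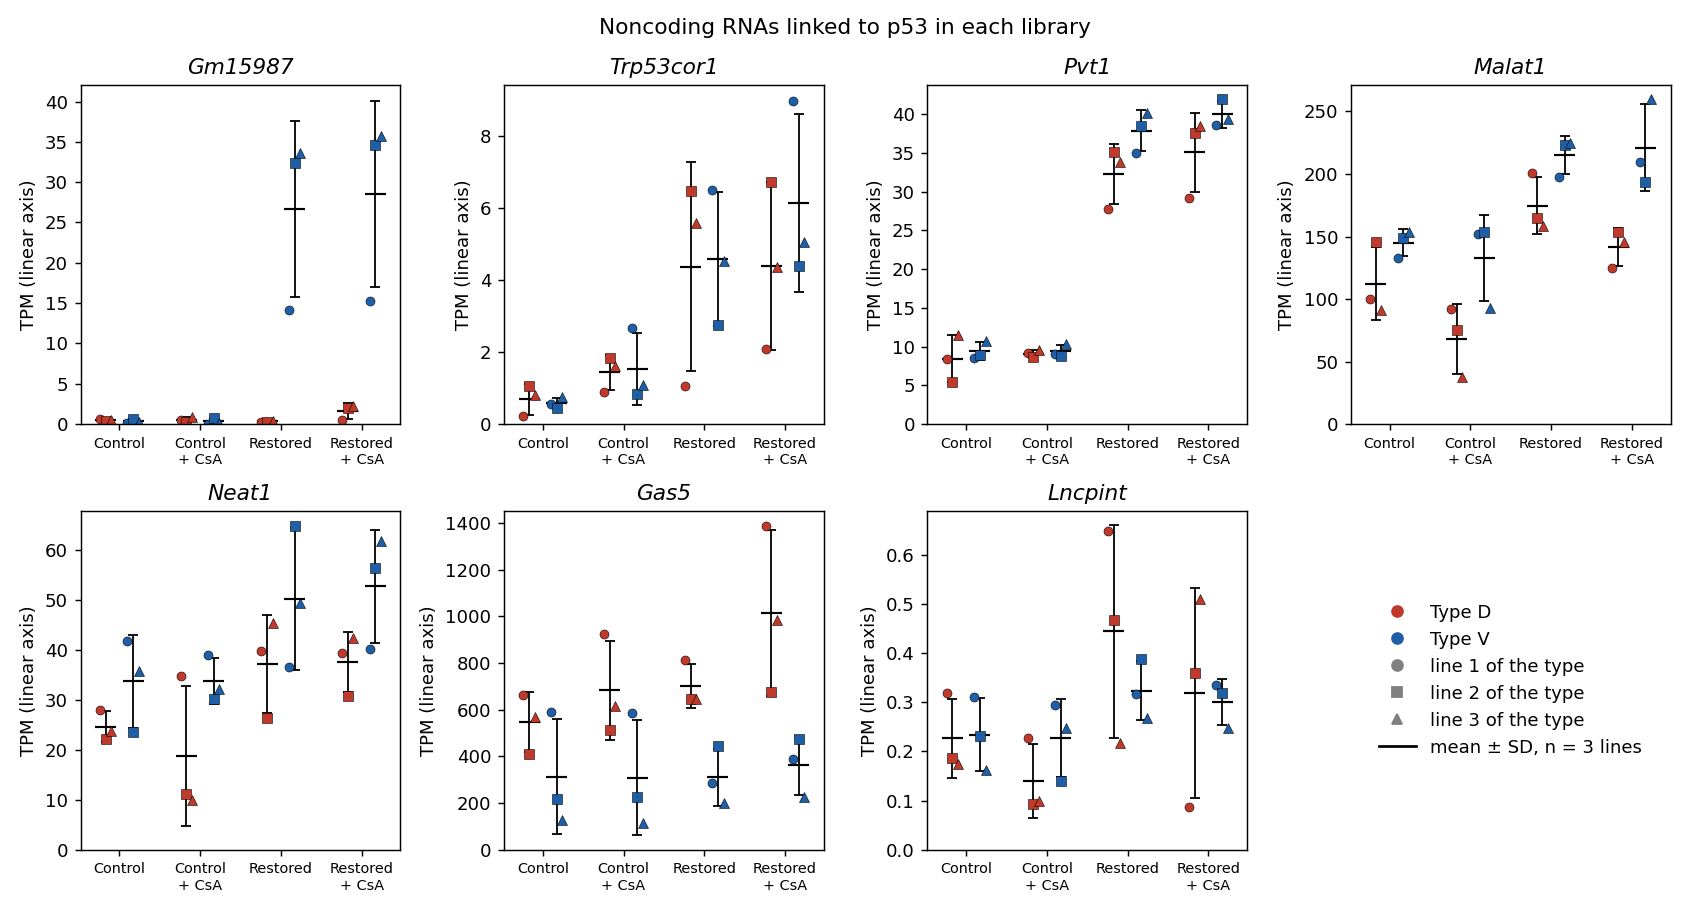
TPM of each noncoding RNA in each of 24 libraries (linear axes from 0, 1 panel per gene), by condition, with Type D in red and Type V in blue, marker shapes for the 3 lines of a type, and black bars for the mean ± SD over 3 lines. Gm15987 is above 14 TPM in the Type V libraries with restored p53 and below 2.3 TPM in all others, Pvt1 has 2 separate levels, and Lncpint stays under 0.65 TPM.

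Gm15987 was near 0 wherever the trap was in place. In Type V Control libraries it was at 0.147, 0.657 and 0.306 TPM, and after restoration at 14.1, 32.4 and 33.6 TPM. The Type D Control values were 0.606, 0.354 and 0.495 TPM, against 0.307, 0.295 and 0.413 TPM after restoration. The Type V groups were far apart, at 0.370 ± 0.261 and 26.7 ± 10.9 TPM (SD, n = 3 lines). Each Type D line was slightly lower after restoration than before, at levels too low to weigh. The change on the log2(TPM + 1) scale was 4.26 (SE 0.37) in Type V and -0.15 (SE 0.37) in Type D. Because Gm15987 was selected on this contrast, these values describe the choice and are no evidence for it.

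The CsA libraries were not used for that choice but come from the same lines, and Gm15987 passed the filter only through its 8 libraries at or above 1 TPM, all of them with restored p53, so no test is given for them either. Gm15987 was at 0, 0.792 and 0.176 TPM in Type V Control + CsA and at 15.3, 34.6 and 35.7 TPM in Type V Restored + CsA. The change was 4.43 (SE 0.37). Replicate 1 (4711-11) was the lowest of the 3 lines in both restored groups.

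In Type D Control + CsA, Gm15987 was at 0.483, 0.264 and 0.840 TPM, and in Type D Restored + CsA at 0.499, 2.04 and 2.28 TPM. Lines 4711-18 and 4716-11 thus exceeded 2 TPM, a level reached in no other Type D library, and line 4711-1 was level with its controls. The change was 0.71 (SE 0.37). The response was smaller in each Type D line (0.02 to 1.27) than in any Type V line (4.02 to 4.97), and Type D minus Type V was -3.73 (SE 0.52). Gm15987 was chosen by its difference between types in these same lines, so these values are a description and no independent evidence for that difference.

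The Gm15987 gene runs across Clec2g, a C-type lectin gene on the opposite strand, with 0 of 2231 exonic bases shared. Clec2g was low throughout, with a highest value of 1.04 TPM, and the flanking genes Clec2i and Klrb1f reached 0.0669 and 0.842 TPM. Whether the deposited values used the strand of the reads is not given in the sources used here. Mir7649, a microRNA gene that lies in an exon of Gm15987, was listed above 0 in 3 libraries only: 1.53 TPM in Type V Restored replicate 3, and 1.53 and 2.37 TPM in Type V Restored + CsA replicates 2 and 3. This gene was singled out after its values were seen, and a poly(A) library does not measure mature microRNAs. Its mature arms in RefSeq, with the seed (bases 2 to 8) in capitals, are shown because they are part of the transcript that was high in Type V.
mmu-miR-7649-5p: uGACAGCAgugcuguagacaug
mmu-miR-7649-3p: uCUCUCCAgcacugcuuguuucu
The arms lie on the minus strand at chr6:128974874-128974895 and chr6:128974840-128974862 (GRCm38.p6).

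Trp53cor1 (chr17:29057430-29079179, minus strand) and Pvt1 (chr15:62037986-62378096, plus strand) were the noncoding RNAs listed by name that passed the threshold after restoration without drug in both types. The threshold, in limma, needed both an adjusted p below 0.05 and a log2 change of 1 or more. Among the 5 listed by name and tested, they were 2 of 5 in Type D, where 6.93% of all genes passed, and 2 of 5 in Type V, where 5.29% passed.

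The Type D Control lines had 8.35, 5.40 and 11.5 TPM of Pvt1, and the Type D Restored lines had 27.8, 35.1 and 33.9 TPM. In Type V it went from 8.48, 8.96 and 10.7 TPM to 34.9, 38.5 and 40.2 TPM. Every restored library lay above every control library of either type. How many of all genes had groups that did not overlap was not counted, here or below. The change was 1.87 (SE 0.19, adjusted p = 1.9e-06) in Type D and 1.91 (SE 0.19, adjusted p = 2.2e-06) in Type V. Under CsA, Pvt1 was at 9.11, 8.60 and 9.59 TPM in Type D controls and 29.2, 37.5 and 38.5 TPM after restoration, and at 9.06, 8.81 and 10.4 TPM against 38.6, 41.9 and 39.4 TPM in Type V. These changes of 1.83 and 1.98 were also past the threshold. Across all conditions, the 12 libraries without restored p53 ran from 5.40 to 11.5 TPM and the 12 with it from 27.8 to 41.9 TPM. The difference between types was -0.04 without CsA (95% interval -0.61 to 0.52) and -0.15 with it (-0.72 to 0.42).

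Trp53cor1 was far less abundant. Its Type D values were 0.210, 1.04 and 0.800 TPM before and 1.06, 6.48 and 5.57 TPM after restoration. Its Type V values were 0.561, 0.455 and 0.742 TPM before and 6.49, 2.75 and 4.52 TPM after. The groups did not overlap in either type, although Type D replicate 1 (4711-1) ended only at the level where replicate 2 began. The change was 1.50 (SE 0.45, adjusted p = 0.032) in Type D and 1.76 (SE 0.45, adjusted p = 0.015) in Type V. Both calls were lost when only the compared groups were fitted (adjusted p = 0.16 and 0.053), the Type D call without replicate 2 or 3 (adjusted p = 0.19 and 0.25), and the Type V call without replicate 1 or 3 (adjusted p = 0.13 and 0.099).

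Under CsA, the Type D values of Trp53cor1 were 0.892, 1.83 and 1.60 TPM before and 2.07, 6.73 and 4.37 TPM after restoration. The Type V values were 2.68, 0.823 and 1.09 TPM before and 8.98, 4.40 and 5.05 TPM after. It was higher after restoration in each of the 6 lines. The Type V change of 1.51 passed (SE 0.45, adjusted p = 0.044), and the Type D change of 1.07 did not (SE 0.45, adjusted p = 0.16). With the cell line as a block, which pairs the libraries of each line, the Type D change passed too (adjusted p = 0.0020). The Type V call was lost without any single Type V line (adjusted p = 0.12 to 0.22), with a pseudocount of 0.1, with no filter, with quantile scaling (0.058 to 0.066) and with only the compared groups fitted (0.16). The difference between types was -0.26 without CsA (95% interval -1.59 to 1.07) and -0.45 with it (-1.77 to 0.88), so differences of over 1 toward Type V lie within both intervals. These intervals come from the fit that does not pair the libraries of a line, so they also carry spread between lines. With the cell line as a block in limma, the adjusted p of the difference was 0.69 without CsA and 0.46 with it.

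**Figure D2:**
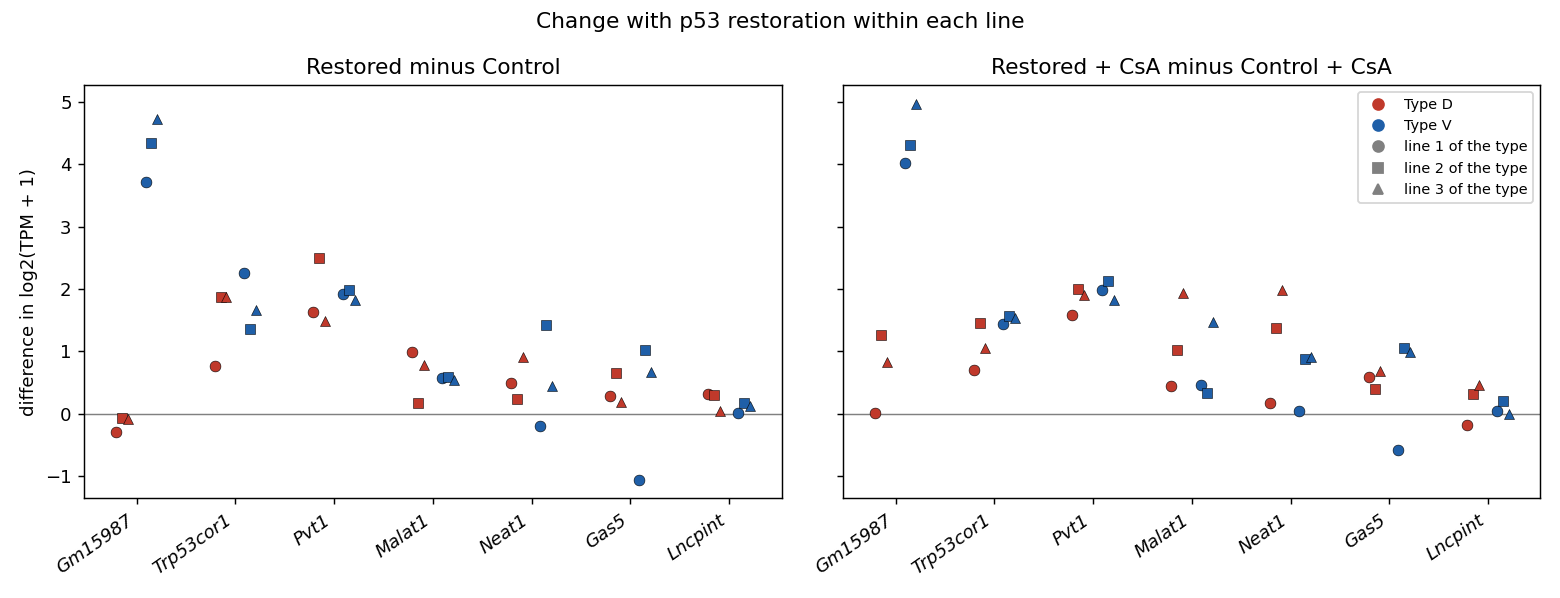
Difference in log2(TPM + 1) between restored and control libraries of each line, without CsA (left) and with CsA (right), for each noncoding RNA, with Type D in red, Type V in blue and a marker shape for each of 3 lines. Trp53cor1 and Pvt1 are above 0 in all 6 lines on both sides, and Gm15987 is above 3.7 in the Type V lines and below 1.3 in the Type D lines.

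Malat1 (chr19:5795690-5802672) and Neat1 (chr19:5824708-5845478) are neighbors on the minus strand. Malat1 was at 100.3, 145 and 91.3 TPM in Type D Control and 200.9, 165 and 158 TPM in Type D Restored, and at 133, 148 and 153 TPM against 198, 223 and 224 TPM in Type V. The groups did not overlap in either type, a separation that was not set against all genes. The changes of 0.65 (SE 0.26, adjusted p = 0.11) in Type D and 0.57 (SE 0.26, adjusted p = 0.20) in Type V were not past the threshold. With CsA, Malat1 went from 91.7, 75.4 and 37.3 TPM to 125, 154 and 146 TPM in Type D, a change of 1.13 (SE 0.26, adjusted p = 0.0076) that passed. In Type V it went from 152, 154 and 93.1 TPM to 209, 193 and 260.1 TPM, a change of 0.75 (SE 0.26, adjusted p = 0.085) that did not.

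Malat1, Pvt1 and Trp53cor1 were higher after restoration in all 6 lines both without and with CsA. Of all genes tested, 23.8% were higher in all 6 lines without CsA and 22.2% with it, so within either condition this direction alone sets none of them apart. The share of all genes that were higher in all 6 lines in both conditions was not counted. The Type D call for Malat1 under CsA was lost without replicate 3 (4716-11), the line whose Control + CsA level was lowest, with a change of 0.73 (adjusted p = 0.15). It was also lost when only the compared groups were fitted (adjusted p = 0.11), and median-ratio scaling put the change just under 1.

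Neat1 was at 28.0, 22.2 and 23.7 TPM in Type D Control and 39.7, 26.4 and 45.5 TPM in Type D Restored, and at 41.8, 23.6 and 35.8 TPM against 36.5, 64.8 and 49.3 TPM in Type V. The groups overlapped in both types, and the changes of 0.55 (SE 0.35, adjusted p = 0.37) and 0.56 (SE 0.35, adjusted p = 0.39) did not pass. Type V replicate 1 (4711-11) was lower after restoration and the other 5 lines were higher. Under CsA, the Type D values of Neat1 were 34.8, 11.3 and 9.98 TPM before and 39.4, 30.8 and 42.4 TPM after restoration. The Type V values were 39.0, 30.2 and 32.3 TPM before and 40.1, 56.3 and 61.8 TPM after. The Type D change of 1.18 passed (SE 0.35, adjusted p = 0.040), and it was lost without replicate 2 or 3 (adjusted p = 0.22 and 0.49), with no filter (0.057), under both scalings of the TPM columns (0.079 and 0.092) and with only the compared groups fitted (0.20). The Type V change of 0.61 did not pass (SE 0.35, adjusted p = 0.37).

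Restoration under CsA thus put 3 of the 5 tested members listed by name past the threshold in Type D (Pvt1, Malat1 and Neat1; 5.41% of all genes) and 2 of 5 in Type V (Pvt1 and Trp53cor1; 4.61% of all genes). Malat1 and Neat1 passed in Type D and not in Type V, but a difference between types was not shown. The interaction was 0.38 for Malat1 (95% interval -0.39 to 1.14) and 0.56 for Neat1 (95% interval -0.47 to 1.60), each with an adjusted p of 1.0, and both intervals hold differences of over 1. Both come from the fit that does not pair the libraries of a line. With the cell line as a block in limma, the adjusted p was 0.54 for Malat1 and 0.48 for Neat1. In that comparison 0.0142% of all genes passed and 0 of the 5 members listed by name did (limma), with 0 at an unadjusted p under 0.05. Without CsA it was 0.09 for Malat1 (95% interval -0.68 to 0.85) and -0.01 for Neat1 (95% interval -1.05 to 1.02), in a comparison where 0.0284% of all genes passed and 0 of the 5 members listed by name had an unadjusted p under 0.05 (limma).

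Gas5 (chr1:161034422-161038539, plus strand), the most abundant of the set, varied widely between lines. It was at 664, 410.3 and 569 TPM in Type D Control and 812, 647 and 646 TPM in Type D Restored, and each line was higher. In Type V it went from 592, 219 and 126 TPM to 285, 443 and 202 TPM, so replicate 1 (4711-11) was lower and the others higher. The changes of 0.38 (SE 0.53, adjusted p = 0.76) in Type D and 0.21 (SE 0.53, adjusted p = 0.91) in Type V did not pass. Under CsA they were 0.55 (SE 0.53, adjusted p = 0.63) and 0.49 (SE 0.53, adjusted p = 0.73). The interaction was 0.17 (95% interval -1.41 to 1.75) without CsA and 0.07 (95% interval -1.51 to 1.65) with it.

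Gas5 also had the largest fitted difference in level between types of the members listed by name. The Control groups overlapped, with 548 ± 128 TPM for the Type D lines and 312 ± 247 TPM for the Type V lines (SD, n = 3), and the Restored groups did not, with 702 ± 95.5 and 310 ± 122 TPM. Type D minus Type V was 1.08 in Control (SE 0.53, adjusted p = 0.20) and 1.24 in Restored (SE 0.53, adjusted p = 0.13), neither past the threshold, where 8.83% and 9.44% of all genes passed. The median of all genes in the Control comparison was -0.12 and moved to -0.02 with median-ratio scaling. Without Type V replicate 1 (4711-11) the Control difference was 1.68 and passed (adjusted p = 0.021). Of the 5 members listed by name, 0 passed in either comparison (limma), with 0 in Control and 1 in Restored (Gas5) at an unadjusted p under 0.05. Over all 14104 genes tested, 3850 in Control and 4120 in Restored had one. Gm15987, described without a test, was 4.28 lower in Type D Restored than in Type V Restored and differed by 0.13 between the Control groups.

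Lncpint (chr6:31082565-31220488, minus strand) was below 0.65 TPM in all 24 libraries and was not tested. It was at 0.319, 0.187 and 0.174 TPM in Type D Control and 0.647, 0.467 and 0.218 TPM in Type D Restored, and at 0.310, 0.231 and 0.161 TPM against 0.316, 0.387 and 0.267 TPM in Type V. Each line was higher after restoration, at levels too low to weigh. With CsA, 5 of 6 lines were higher. The depth of the libraries is unknown, since TPM keeps none.

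Of the 5 members listed by name and tested, CsA alone moved 0 past the threshold in either type, and so did CsA added to restored p53 (limma). The share of all genes that passed was 0% for CsA alone in Type D, 0% in Type V, 0.0142% for CsA added to restored p53 in Type D and 0% for the same in Type V. Counting an unadjusted p under 0.05, there was 1 of the 5 for CsA alone in Type D (Malat1) and 0 in the other 3 comparisons. Over all 14104 genes tested, 114 had one for CsA alone in Type D. These counts come from the fit that does not pair the libraries of a line. With the cell line as a block in limma, CsA alone had 2 such members in Type D and 1 in Type V. Over all genes, 953 and 609 had an unadjusted p under 0.05 in that fit. CsA added to restored p53 still had 0 of the 5 in either type, and no member passed the threshold with the block.

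Trp53cor1 was higher with CsA alone in all 6 lines, as were 5.44% of all genes. In the limma fit that does not pair the libraries of a line, the change was 0.55 (SE 0.45) in Type D and 0.61 (SE 0.45) in Type V, each with an adjusted p of 1.0. The Type D mean was 0.684 ± 0.429 TPM without and 1.44 ± 0.488 TPM with CsA. The Type V mean was 0.586 ± 0.145 TPM without and 1.53 ± 1.00 TPM with it (SD, n = 3), and line 4711-11 had the largest difference. Malat1 was lower with CsA in each of the 3 Type D lines, with a fitted difference of -0.78 (SE 0.26, adjusted p = 1.0), and Neat1 had -0.60 (SE 0.35, adjusted p = 1.0). The lower values of both were mostly in 4711-18 and 4716-11, and neither is past the threshold. The larger Type D changes of Malat1 and Neat1 with restoration under CsA are taken against these low Control + CsA libraries.

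With p53 restored, Gas5 and Gm15987 were higher with CsA in all 6 lines, as were 3.8% of all genes. Gas5 reached 1387, 675 and 984 TPM in Type D Restored + CsA, with a change of 0.48 (SE 0.53) in Type D and 0.23 (SE 0.53) in Type V. Both had an adjusted p of 1.0. Gm15987 changed by 0.88 (SE 0.37) in Type D and 0.10 (SE 0.37) in Type V, again with no test.

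**Figure D3:**
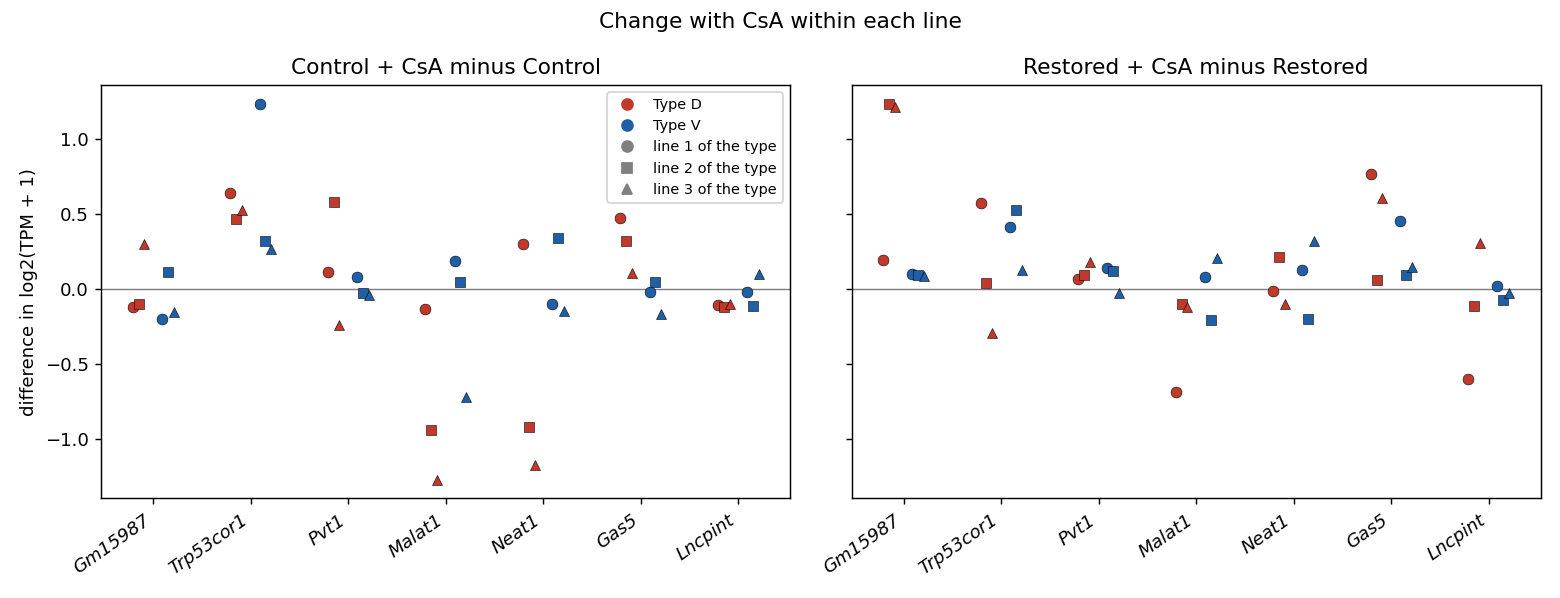
Difference in log2(TPM + 1) with CsA within each line, before restoration (left) and after it (right), for each noncoding RNA, with Type D in red, Type V in blue and a marker shape for each of 3 lines. Trp53cor1 is above 0 in all 6 lines on the left, Malat1 and Neat1 lie below -0.9 in Type D lines 2 and 3, and Gm15987 lies above 1.2 in the same lines on the right.

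The protein-coding genes beside the 7 loci number 14, of which 8 were tested, and those described here follow. Cdkn1a, the p53-induced inhibitor of cyclin-dependent kinases, lies 11.8 kb from Trp53cor1 and rose by 4.17 (SE 0.30) in Type D and 4.80 (SE 0.30) in Type V, and by 3.78 and 4.51 under CsA, all past the threshold. Srsf3, a splicing factor gene on the other side of Trp53cor1, changed by -0.15 and -0.34 and did not pass. Myc, the growth-promoting transcription factor 47.6 kb from Pvt1, changed in limma by -0.03 (SE 0.34, adjusted p = 1.0) in Type D and -0.55 (SE 0.34, adjusted p = 0.39) in Type V. Under CsA it changed by -0.17 and -0.39, so no change of Myc was called beside the rise of Pvt1. In Type V, Myc ran from 162.2 to 228.1 TPM in Control and from 109.5 to 158.5 TPM in Restored. With CsA these ranges were 156.5 to 197.4 TPM and 115.0 to 144.0 TPM. The Type V groups thus did not overlap, a separation that was not set against all genes, and the Type D groups did.

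Frmd8, 4.2 kb from Neat1, rose past the threshold in Type D, by 1.16 (SE 0.21, adjusted p = 0.0009) without and 1.07 (adjusted p = 0.0025) with CsA. In Type V it changed by 0.63 (adjusted p = 0.067) and 0.64 (adjusted p = 0.075). Zbtb37 overlaps Gas5 on the opposite strand and changed by 0.76 in Type D and 0.25 in Type V. Mkln1, beside Lncpint, changed by -0.05 and -0.19. Neither Zbtb37 nor Mkln1 passed in any restoration comparison.

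**Figure D4:**
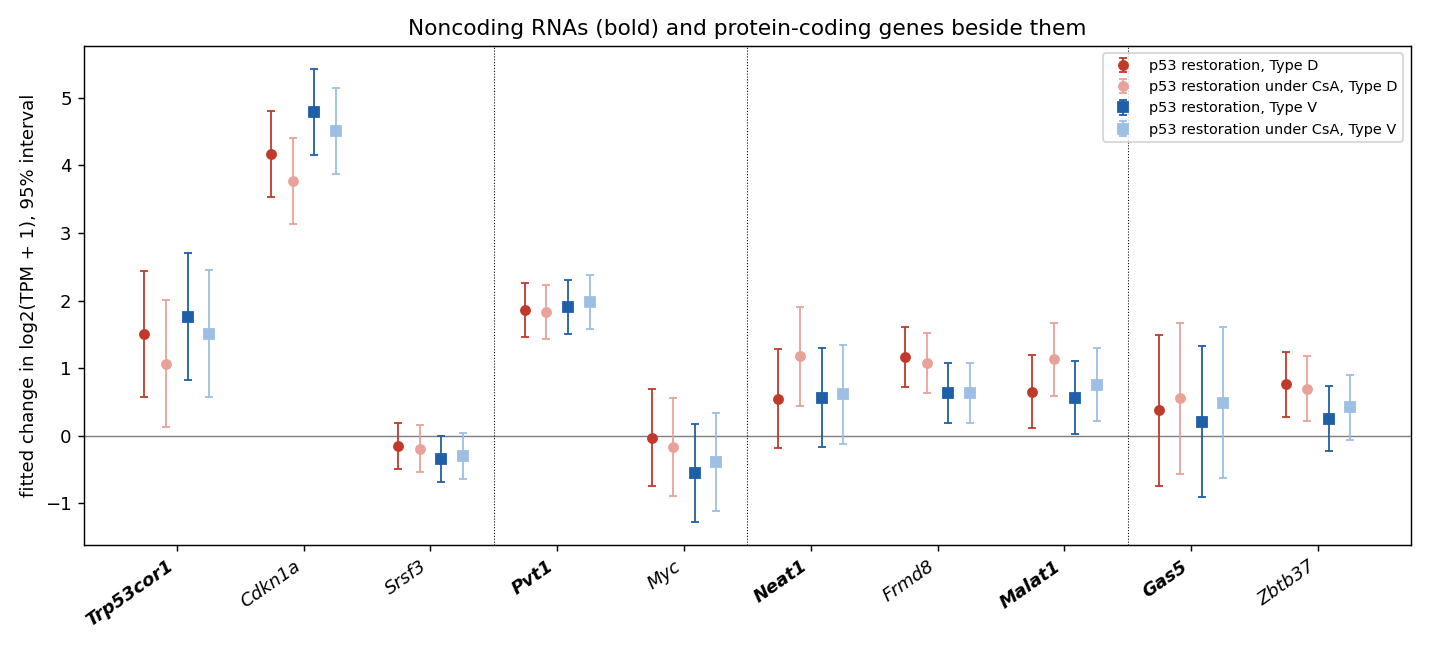
Fitted change in log2(TPM + 1) with its 95% interval for tested noncoding RNAs (bold) and protein-coding genes beside them, with p53 restoration in Type D (red, pale with CsA) and Type V (blue, pale with CsA) and dotted lines between loci. Cdkn1a lies near 4 beside Trp53cor1 at 1.1 to 1.8. Beside Pvt1 at 1.8 to 2.0, Myc lies near 0 in Type D and further below it in Type V.

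For scale, 27 known protein-coding p53 targets were all tested. In Type D, 21 rose and 0 fell without CsA (20 and 0 with it), and in Type V 17 rose and 0 fell (16 and 0), with medians of 2.47, 2.01, 1.81 and 1.79 against 0.07, 0.09, 0.05 and 0.04 for all genes. Mdm2, which marks p53 for degradation, rose by 4.37 in Type D and 3.36 in Type V, and Btg2, an antiproliferative gene, by 3.54 in Type V. The list was chosen with earlier results of these data known. The Pvt1 changes were below the list's median in Type D and above it in Type V. On this scale the Trp53cor1 changes were below it in all 4 comparisons, but the scale understates changes of low genes. With a pseudocount of 0.1, Trp53cor1 changed by 2.36 in Type D and 2.71 in Type V, and by 1.45 and 2.03 under CsA. The list's medians were not taken with that pseudocount, so the place of Trp53cor1 may depend on it.

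None of 7 genes for paraspeckle proteins, the partners of Neat1, passed in a restoration comparison (limma), with medians of -0.32 in Type D and -0.50 in Type V. An unadjusted p under 0.05 (limma) was met by 1 of 7 in Type D (Rbm14) and 4 of 7 in Type V, without as with CsA. Over all 14104 genes tested it was met by 3563 in Type D and 3117 in Type V without CsA, and by 3100 and 2747 with it. Of 14 other hosts of small nucleolar RNAs, the class of Gas5, 2 rose in Type D and 1 in Type V, where 6.93% and 5.29% of all genes passed. Snhg15 rose by 1.37 (SE 0.21) and 1.16 (SE 0.21), and Snhg12 by 1.62 (SE 0.52) in Type D. Of 23 other long noncoding RNAs, 22 were in the table and 14 were tested. Of these 14, 1 rose in Type D, where 6.93% of all genes passed, and 1 rose and 1 fell in Type V, where 5.29% passed. The counts were the same under CsA, where 5.41% and 4.61% of all genes passed. Mir22hg, the host of miR-22, rose by 1.69 (SE 0.32) in Type D and 1.29 (SE 0.32) in Type V, and again under CsA by 1.62 and 1.15. H19, an imprinted growth-related RNA, fell by 2.53 (SE 0.73) in Type V, and by 2.84 under CsA, and was mostly near 0 in Type D.

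The genes with profiles most like each noncoding RNA over the 24 libraries were found by Pearson's r on log2(TPM + 1), given with no p because libraries share lines and conditions. For Pvt1 they were Cd80 (0.981), Dcaf4 (0.974) and 1700007K13Rik (0.974). For Trp53cor1 they were Serinc1 (0.932), Vkorc1 (0.931) and Vmac (0.926), and for Malat1 Mir22hg (0.887), Elf4 (0.88) and Golga2 (0.863). Gm15987 was most like Jakmip3 (0.923), Zfp423 (0.896) and Dusp15 (0.893), Gas5 like Otub2 (0.919), Mettl17 (0.891) and Nr3c2 (0.886), and Neat1 like Fam160b1 (0.83), Kif13a (0.829) and Snhg16 (0.825). The likeness was closest for Pvt1 and weakest for Neat1.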

How the data were processed

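RNA from 24 cultures (6 lines, 4 conditions) was made into stranded poly(A) libraries by the authors. The deposited table holds TPM per gene, transcript levels scaled by length and library, which sum to 1000000 per library and carry no depth. The study's methods name Kallisto and HISAT2, and the submitters' processing notes name HISAT2 with mm10 and GRCm39, so which of them made the values is not settled, and coordinates come from GENCODE and RefSeq in GRCm38 by gene symbol alone. 

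From the table, log2(TPM + 1) was fitted with limma 3.58.1 (R 4.3.3), with 1 coefficient for each of 8 groups over 14104 genes with TPM of at least 1 in at least 3 libraries. p-values were two-sided and adjusted by Benjamini-Hochberg over all genes within a comparison. A call needed both an adjusted p below 0.05 and a log2 change of 1 or more. Fold changes on this scale understate those of low genes. All members were named, with their neighbors and the 3 genes of highest r; list examples were called genes moving one way in all 3 lines. Members and lists were chosen with earlier results of these data known. Libraries of the same line deviated together (r 0.599 to 0.929 over 36 pairs), so the cell line pairs them; the block with the line was an alternative. Other alternatives were a pseudocount of 0.1, no filter, median-ratio and quantile scaling, the compared groups alone and each line left out. Some neighboring and marker genes are not reported here. The fit was tested on simulated data. Plots were made with matplotlib 3.10.9.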

Additional observations from a re-analysis of the deposited data

Results flagged for a closer look

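Gm15987 was flagged because the sign of its change after p53 restoration without CsA differed between the types in every line. It was higher in each of the 3 Type V lines, by 3.72 to 4.73 on the log2(TPM + 1) scale. In each of the 3 Type D lines it was lower, by 0.06 to 0.30. The Type D levels were under 1 TPM and cannot be weighed, so a fall in Type D is not shown. The difference, Type D minus Type V, was -4.41. It was not tested, because Gm15987 was chosen by this contrast. Groups of 3 lines are too small for a check of single outlying libraries.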

How the results depend on the processing

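The number of members called after restoration fell from 2 to 1 (Pvt1 alone) in each type when only the compared groups were fitted, and ranged from 1 to 2 with single lines left out. Under CsA in Type D it fell from 3 to 1 with median-ratio scaling and with only the compared groups fitted (range 1 to 3 without single lines), and in Type V from 2 to 1 (Pvt1 alone) with a pseudocount of 0.1, with no filter, with quantile scaling, with only the compared groups fitted and without any single Type V line. Type D minus Type V in Control had 0 members, and 0 to 1 without single lines. Other counts of members called kept within 1.5 times. Without single lines, the sign turned for Gas5 in Type V restoration (-0.19 to 0.84) and for differences between types that were not called: Trp53cor1 (-0.46 to 0.11), Neat1 (-0.39 to 0.42), Malat1 (-0.081 to 0.33), Pvt1 (-0.36 to 0.15) and Gas5 (-0.47 to 0.57) without CsA, and Malat1 (-0.024 to 0.74) and Gas5 (-0.47 to 0.35) with it; Gas5 also turned with median-ratio scaling (-0.039). The causes were not tested. With the replicate block, members called under CsA in Type D rose from 3 to 4, by Trp53cor1 (1.07), and it changed no other call of a member. Over all genes, the block raised calls from 977 to 1582 in Type D restoration and from 4 to 344 for the difference between types. Quantile scaling changed the split of Type D calls from 633 higher and 344 lower to 499 and 421, and under CsA from 498 and 265 to 373 and 324. With TPM alone, depth is unknown, and levels under 1 TPM (Lncpint, Gm15987 in controls) cannot be weighed.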
